A study of Arabidopsis thaliana with 4 samples.

Results

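The genes that make anthocyanins, and the transcription factors that switch them on, were followed in *bli-1* and Col-0 seedlings. They are 10 of the 25410 loci on the array, taken by locus name from a list chosen with earlier results of these data known. *PAP1* (AT1G56650), *PAP2* (AT1G66390) and *TT8* (AT4G09820) encode regulators. *CHS* (AT5G13930), *F3H* (AT3G51240) and *F3'H* (AT5G07990) encode early enzymes of the pathway. *DFR* (AT5G42800), *LDOX* (AT4G22880), *UF3GT* (AT5G54060) and *GSTF12* (AT5G17220) act at late steps. All 10 loci had a probe, 14 probes in all, and 3 of them (*F3H*, *F3'H* and *GSTF12*) had more than 1. By the RefSeq gene table of TAIR10.1, *PAP1* and *PAP2* lie on chromosome 1, *F3H* on chromosome 3, *TT8* and *LDOX* on chromosome 4, and the other five on chromosome 5.

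Anthocyanins are red to purple flavonoid pigments stored in the vacuole, which accumulate in *Arabidopsis* seedlings under high light, sugar, cold and nutrient shortage. Chalcone synthase (CHS) makes the first committed flavonoid, on which chalcone isomerase acts next. F3H and F3'H act further along, on the way to dihydroflavonols, from which flavonols are made as well. DFR and LDOX lead from dihydroflavonols to anthocyanidins, which are then decorated with sugars and acyl groups and carried to the vacuole. In seedlings, late genes are known to be activated by a complex of a MYB factor such as PAP1 or PAP2, a bHLH factor such as TT8, GL3 or EGL3, and the WD40 protein TTG1, while early genes are also under flavonol-specific MYB factors such as MYB12 and MYB111.

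The mutant group is *bli-1*, the insertion line SAIL_107_D04, in which a T-DNA lies in *BLISTER* (*BLI*), a gene for a plant protein that binds the Polycomb methyltransferase CLF. The inserted T-DNA also carries a *LAT52:GUS* reporter. The wild type is Col-0, and both genotypes were harvested as whole seedlings 12 days after germination, from half-strength MS medium with 0.5% sucrose in continuous light at 20 °C. Seeds of both had been stratified for 2 days at 4 °C. RNA of 2 biological replicates per genotype was labelled with Cy3 and put on single color Agilent arrays, 1 array per replicate. *bli-1* seeds germinate late and were sown earlier than Col-0 in direct comparisons, although this is not stated for the arrays. In RNA of whole seedlings, fewer cells that express a gene and less RNA per cell cannot be told apart.

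The targeted gene was lower in the mutant, with a log2 signal of *BLI* (AT3G23980) of 7.38 and 7.68 in *bli-1*, against 9.17 and 8.99 in Col-0 (log2 fold change −1.55, standard error 0.16, adjusted p = 0.0823 from limma). Its first probe gave a log2 fold change of −0.42. The second read 4 and 123.5 units above local background in *bli-1*, against 427.5 and 362.5 in Col-0, and was well above background on 1 of the 2 *bli-1* arrays, so that the fold change of *BLI* rests in part on a value at background. Where the probes lie relative to the insertion was not checked. The array of *bli-1* replicate 2 stood apart among dim spots. Of the 15137 gene spots with at most 50 intensity units above local background on the other 3 arrays, 40.6% had more than 100 units on it. Among the other 3 arrays alone, the same count was 160 of 15931 spots for *bli-1* replicate 1, 5 of 15244 for Col-0 replicate 1 and 2 of 15409 for Col-0 replicate 2, each time among spots with at most 50 units on the other two. The median of the negative control spots was 46.5 units on *bli-1* replicate 2, against 19 to 20 on the other arrays. *bli-1* replicate 1 lay on a slide of its own and the other 3 arrays shared a slide, so slide and replicate cannot be told apart within *bli-1*. Shoot markers gave similar sums in *bli-1* (234000 and 244000 units) and Col-0 (218000 and 250000). These sums rest mostly on *RBCS1A*, the brightest of the 4, with a log2 fold change of −0.16. The other 3 had positive ones (*CAB1* 0.39, *LHCB2.1* 0.41 and *LHCA1* 0.34), and the median of the 4 was 0.36. Of 7 root markers, 6 had a negative log2 fold change. The summed signal of all 7 was 39700 and 21200 units in *bli-1*, against 32200 and 26600 in Col-0. The exception, *PYK10* (0.17), was the brightest and made up most of this sum. All 4 shoot and all 7 root markers were well above background on all 4 arrays, while 0 of the 3 markers of maturing seeds were.

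In the intensities as deposited, before any normalization, 3 of the 4 late genes already separated the genotypes. The values in this paragraph are the intensity of a spot minus its local background, in scanner units. The probe of *DFR*, for dihydroflavonol reductase, read 293 and 289 in *bli-1*, against 937 and 857 in Col-0. For *LDOX*, which encodes the dioxygenase that makes anthocyanidins, the probe read 70.5 and 62 in *bli-1*, against 208 and 187 in Col-0. The glutathione S-transferase gene *GSTF12*, needed to bring anthocyanins into the vacuole, read 309.5 and 295.5 in *bli-1*, against 884.5 and 733 in Col-0, on its first probe. On its second probe *GSTF12* read 81.5 and 122 in *bli-1*, against 153 and 140 in Col-0. Both mutant arrays were thus below both wild type arrays for these 3 genes. *UF3GT*, for a glycosyltransferase that adds xylose to anthocyanins, did not separate, with 74 and 278 in *bli-1*, against 257 and 207.5 in Col-0. Among all 14 probes, 6 had both *bli-1* arrays below both Col-0 arrays, against 1.03% of all 43603 gene probes on the same scale, on which the arrays also differ in overall brightness. These 6 were the probes of *PAP1*, *DFR* and *LDOX*, both of *GSTF12* and the second one of *F3H*.

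**Figure D1:**
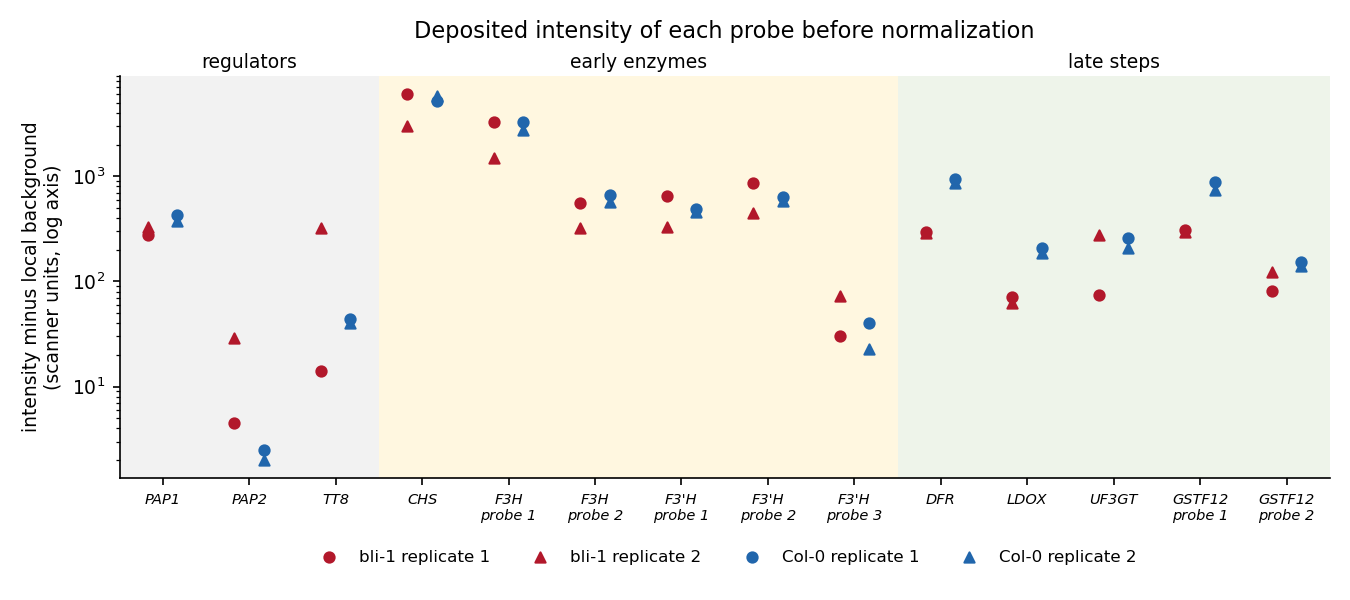
Intensity minus local background (scanner units, log axis) of each of the 14 probes, with *bli-1* in red and Col-0 in blue, circles for replicate 1 and triangles for replicate 2. *DFR* reads 293 and 289 in *bli-1* and 937 and 857 in Col-0, while *TT8* reads 14 and 325 in *bli-1* and 44 and 40 in Col-0.

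Local background under these probes was 14 to 22 units on all arrays, so it played little part for the brighter genes. The 13 probes other than that of *PAP2* were well above background on all 4 arrays by the scanner software's own mark. This mark was given to 91.7% of gene spots on *bli-1* replicate 2, against 74.7% to 77.4% on the other arrays. On that array it therefore says less about a dim probe. To set arrays against each other, the intensities were corrected for background with normexp of limma and an offset of 50, quantile normalized and put on a log2 scale, and probes of a gene were averaged. Log2 signals and log2 fold changes below are on this scale, a fold change being *bli-1* minus Col-0. Genes were tested with limma and called at a Benjamini-Hochberg adjusted p below 0.05, over 34290 genes and transcripts, with at least a 1.5-fold change.

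Of the 10 genes, limma called 0, where it called 0.114% of all genes and transcripts (0.0962% higher and 0.0175% lower in *bli-1*). By fold change alone, 7 of the 10 reached a 1.5-fold lower signal in *bli-1* and 0 a 1.5-fold higher one, against 3.48% and 4.93% of all genes and transcripts. At an unadjusted p below 0.05 with the same minimum fold change, 5 of the 10 were lower in *bli-1* and 0 higher, where 2.69% of all genes and transcripts were lower and 2.48% higher. These 5 were *PAP1* and all 4 late genes. Both *bli-1* arrays lay below both Col-0 arrays for 7 of the 10, against 23.0% of all genes and transcripts, and above them for 0, against 21.2%. Because the 10 genes were chosen with earlier results of these data known, these shares describe the set and do not test it. The median log2 fold change was −0.95 over the 9 genes well above background on every array (−0.92 if *PAP2*, which was at background, is counted in) and −0.01 over all genes and transcripts. The smallest two-sided p that an exact permutation of 2 against 2 arrays allows is 0.333, so such a test of a gene could not pass.

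The most negative fold changes of the 10 genes were those of *DFR*, *LDOX* and *GSTF12*, all late genes. *DFR* had log2 signals of 8.40 and 7.90 in *bli-1*, against 10.49 and 9.82 in Col-0. The log2 fold change was −2.01 (95% interval −2.78 to −1.24, adjusted p = 0.138 from limma), or 4.02-fold higher in Col-0, and 0.07% of all genes and transcripts had a lower one. Every pairing of a mutant with a wild type array gave a lower value for *DFR* in the mutant, with differences between −2.59 and −1.42 log2 units, while the replicates of 1 genotype differed by 0.50 in *bli-1* and 0.67 in Col-0. The difference between genotypes was therefore larger than either replicate difference, although it missed the adjusted threshold.

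*LDOX* had log2 signals of 7.19 and 6.22 in *bli-1*, against 8.55 and 8.06 in Col-0 (log2 fold change −1.60, 95% interval −2.56 to −0.64, adjusted p = 0.268 from limma). Its signal in *bli-1* was dim. On *bli-1* replicate 2 it lay within the range of *PAP2*, a gene at background with log2 signals of 6.03 to 6.29 on the 4 arrays. The fold change of *LDOX* thus rests in part on a value near background, and the offset pulls the fold change of such a gene toward 0. With a smaller offset of 0 in place of 50 the value was −2.68, and with the scanner software's own corrected signal it was −3.88, so the size of the difference at *LDOX* was not well fixed. Its sign was negative under each of the 17 alternatives that were run, though some of these change only the test and not the fold change.

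*GSTF12* had log2 signals of 7.87 and 7.25 in *bli-1*, against 9.31 and 8.71 in Col-0 (log2 fold change −1.45, 95% interval −2.24 to −0.66, adjusted p = 0.241 from limma). Its first and brighter probe gave −1.82 and its second −1.08. The 2 probes thus pointed the same way and differed in size. *UF3GT* had log2 signals of 7.22 and 7.83 in *bli-1*, against 8.80 and 8.16 in Col-0, and here the groups did not overlap once the arrays were normalized. Its log2 fold change of −0.95 (95% interval −1.76 to −0.14, adjusted p = 0.415 from limma) rested more on *bli-1* replicate 1, at −1.26 relative to the Col-0 mean, than on replicate 2, at −0.64.

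**Figure D2:**
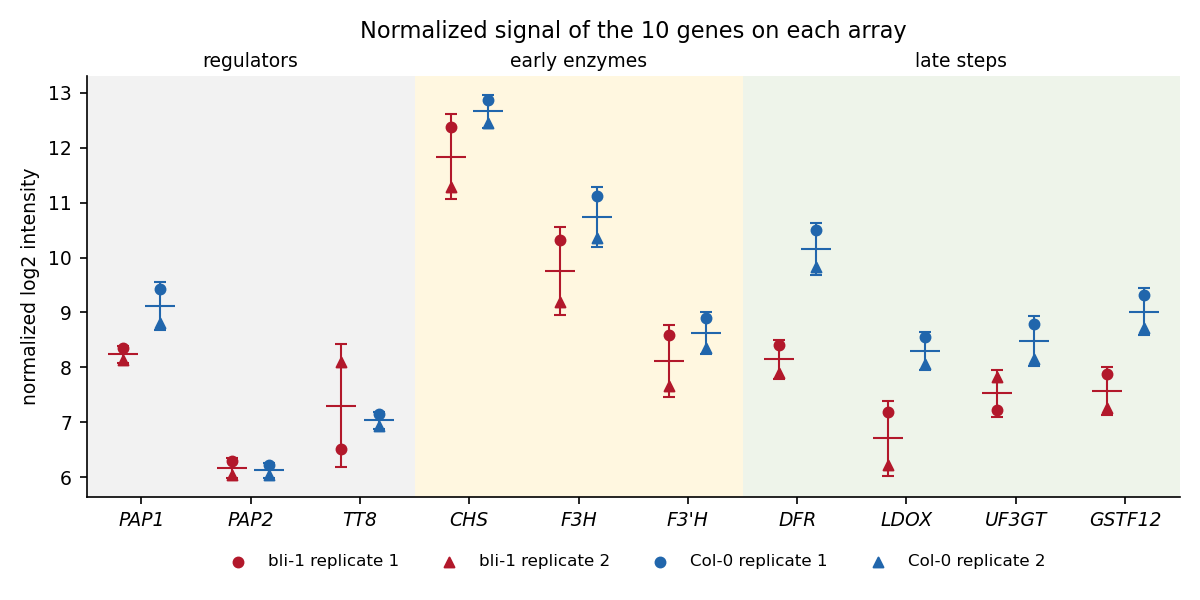
Normalized log2 intensity of the 10 genes on each array, with *bli-1* in red left of Col-0 in blue, bars for the mean and SD of 2 arrays, circles for replicate 1 and triangles for replicate 2. For the 4 late genes both *bli-1* arrays lie below both Col-0 arrays, with *DFR* at 8.40 and 7.90 in *bli-1* and 10.49 and 9.82 in Col-0.

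The early enzymes were lower in *bli-1* on average, but for each of them the 2 mutant arrays differed from each other by more than the genotypes did, and none passed the unadjusted threshold. *CHS* had log2 signals of 12.38 and 11.29 in *bli-1*, against 12.87 and 12.45 in Col-0 (log2 fold change −0.83, 95% interval −1.86 to 0.21, adjusted p = 0.586 from limma). *F3H* had 10.33 and 9.19 in *bli-1*, against 11.12 and 10.35 in Col-0 (log2 fold change −0.98, 95% interval −2.17 to 0.22, adjusted p = 0.577 from limma). *bli-1* replicate 1 differed from the nearest wild type array by only −0.06 log2 units for *CHS* and −0.03 for *F3H*, so the groups were barely apart.

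*F3'H*, whose product adds a hydroxyl group to the B-ring of flavonoids, had log2 signals of 8.59 and 7.66 in *bli-1*, against 8.89 and 8.35 in Col-0. Here the groups overlapped (log2 fold change −0.50, 95% interval −1.46 to 0.45, adjusted p = 0.649 from limma), and its 3 probes gave −0.60, −0.53 and −0.38. In the deposited intensities before normalization, the first 2 probes of *F3'H* were highest on *bli-1* replicate 1, with 648 and 855 units, against 491 and 641.5 on the brighter Col-0 array. The same held for the probe of *CHS* (6046.5, against 5216 and 5776 in Col-0) and the first of *F3H* (3285, against 3280 and 2759). It did not hold for the second probe of *F3H* (556, against 658 and 563.5) or the third of *F3'H* (30, against 40 and 23). All 3 early genes were lower on *bli-1* replicate 2 than on replicate 1, with differences of −1.14 for *F3H* and −0.93 for *F3'H* in log2 units and one between these for *CHS*.

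**Figure D3:**
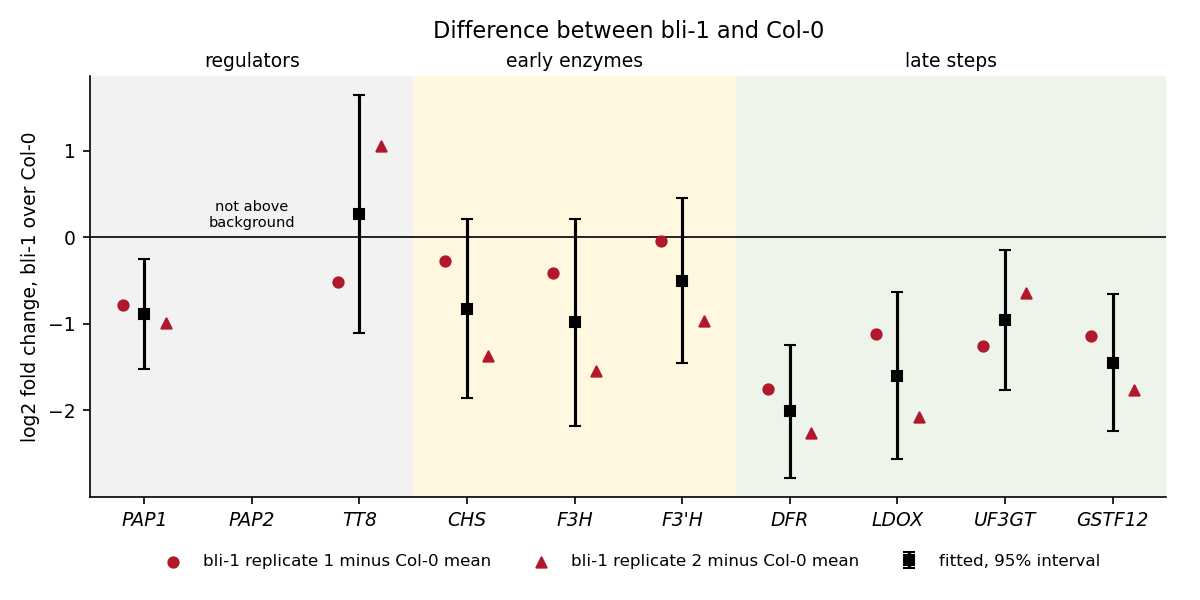
Log2 fold change of each gene, *bli-1* over Col-0, with the fitted value and its 95% interval in black and each *bli-1* array minus the Col-0 mean in red (circle, replicate 1, and triangle, replicate 2). The 4 late genes and *PAP1* have intervals below 0, and those of the 3 early genes and of *TT8* include 0.

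Set side by side as medians, the late steps differed more between the genotypes than the early steps on both mutant arrays. As a median over the 3 early genes, *bli-1* replicate 1 was at −0.28 and replicate 2 at −1.37 log2 units relative to the Col-0 mean. As a median over the 4 late genes, the same arrays were at −1.20 and −1.92. The late minus the early median was thus −0.92 on replicate 1 and −0.55 on replicate 2. The Col-0 arrays, which are centred on their own mean and therefore mirror each other, lay 0.04 from it in this difference. Over both arrays the medians were −1.52 for the late and −0.83 for the early genes. No test was made of this difference, since the genes were grouped with earlier results of these arrays known. *UF3GT*, with −0.95, lay within the range of the early genes, and the largest of the early differences was that of *F3H* with −0.98. On *bli-1* replicate 2 alone, *UF3GT* was at −0.64, nearer to the Col-0 mean than *CHS* (−1.37), *F3H* (−1.55) and *F3'H* (−0.97).

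Among the regulators, *PAP1* was lower in *bli-1* on both arrays, *TT8* disagreed between the mutant arrays, and *PAP2* was not measured above background. *PAP1*, the MYB factor named for production of anthocyanin pigment, had log2 signals of 8.35 and 8.13 in *bli-1*, against 9.43 and 8.81 in Col-0. Its log2 fold change was −0.88 (95% interval −1.52 to −0.25, adjusted p = 0.339 from limma), or 1.85-fold higher in Col-0, and both *bli-1* arrays lay below both Col-0 arrays. The mutant replicates of *PAP1* were 0.22 log2 units apart, the closest of the 9 genes that were measured above background.

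The probe of the bHLH gene *TT8* read 14 and 325 units above local background in *bli-1*, against 44 and 40 in Col-0. On the log2 scale it was 6.52 and 8.09 in *bli-1*, against 7.15 and 6.93 in Col-0, so that 1 mutant array lay below and the other above the wild type. The fitted log2 fold change of 0.27 (95% interval −1.11 to 1.64, adjusted p = 0.852 from limma) became −0.55 without *bli-1* replicate 2 and 0.97 without *bli-1* replicate 1. The high value stood on the array on which 40.6% of the dim spots were raised. At 325 units *TT8* was among the 214 highest of these 15137 spots, and what the raised dim signal contributes to it was not tested. *PAP2*, for another MYB factor, was not well above background on any array, with 4.5 and 29 units in *bli-1*, against 2.5 and 2 in Col-0, and is given no fold change.

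The *bli-1* arrays were also compared one at a time with Col-0. Within the slide that holds *bli-1* replicate 2 and both Col-0 arrays, in a fit with the slide as a block, limma called 7 of the 10 genes lower and 1 higher. The 7 were *PAP1*, *CHS*, *F3H*, *F3'H*, *DFR*, *LDOX* and *GSTF12*, and the 1 was *TT8*. In this fit 16.6% of all genes and transcripts were called, so calls were common, and it sets a single mutant array against 2 wild type arrays. The within-slide log2 fold changes were −2.26 for *DFR* (adjusted p = 0.00159 from limma), −2.08 for *LDOX*, −1.76 for *GSTF12* and −0.64 for *UF3GT*, which was not called (adjusted p = 0.106 from limma). For the early genes they were −1.37, −1.55 and −0.97 for *CHS*, *F3H* and *F3'H*.

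Without *bli-1* replicate 2, in contrast, 0 of the 10 genes were called by limma and 0 of all genes and transcripts. The log2 fold changes then were −1.79 for *DFR*, −1.20 for *LDOX*, −1.35 for *UF3GT* and −1.18 for *GSTF12*, but −0.28 for *CHS*, −0.41 for *F3H* and −0.04 for *F3'H*. The late genes thus were at −1.18 log2 units or lower, while the early genes were close to the wild type on the remaining mutant array.

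**Figure D4:**
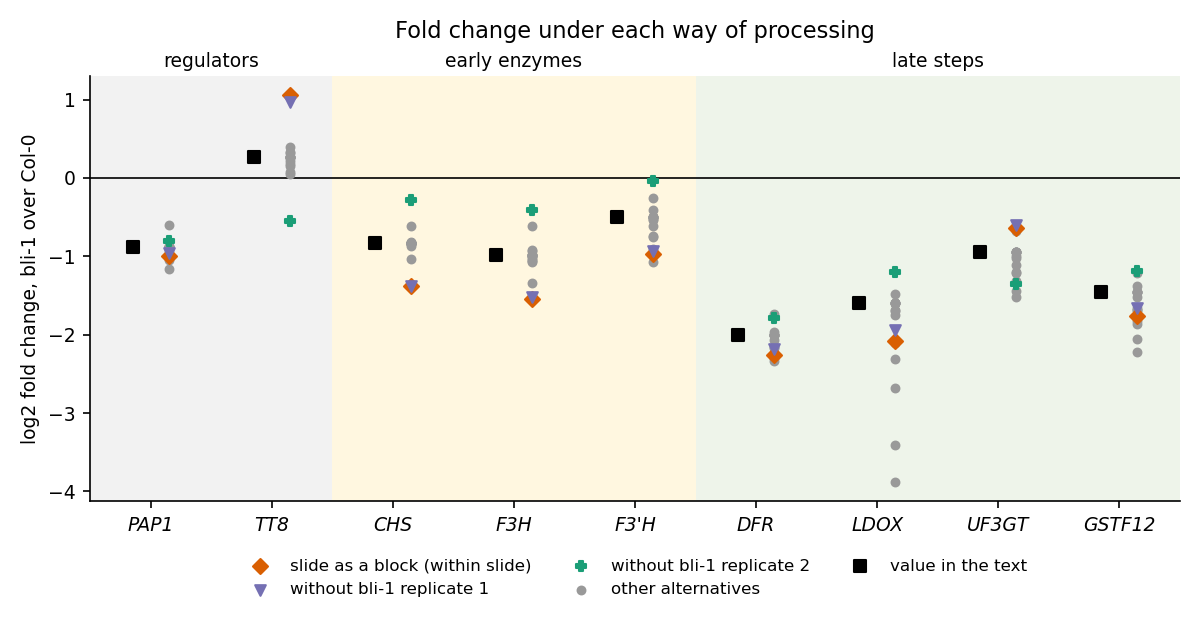
Log2 fold change of the 9 genes measured above background, *bli-1* over Col-0, with the value in the text as a black square and the 17 alternatives beside it. *TT8* alone changes sign, at −0.55 without *bli-1* replicate 2, and *LDOX* spans the widest range, between −3.88 and −1.20.

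The other genes of flavonoid synthesis and its control were taken from 8 lists of 43 loci, all of which were on the array and 34 of which were well above background on all 4 arrays. limma called 0 of the 43, where it called 0.114% of all genes and transcripts. At an unadjusted p below 0.05 with at least a 1.5-fold change, 7 of the 43 were lower and 3 higher. Of all genes and transcripts, 2.69% were lower and 2.48% higher by the same rule. The median log2 fold change was −0.13 over the 43 genes and −0.25 over the 34.

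The genes that decorate anthocyanins with sugars and acyl groups had a negative log2 fold change in 6 of 6 cases, with a median of −0.37. Values were near 0 for *BGLU10* (−0.09) and *3AT1* (−0.02), and the 2 probes of *3AT1* gave 0.43 and −0.47. Both *bli-1* arrays lay below both Col-0 arrays for 3 of the 6, against 23.0% of all genes and transcripts. *UGT75C1* (AT4G14090), for the glucosyltransferase that acts on the A-ring of anthocyanins, had log2 signals of 7.45 and 6.43 in *bli-1*, against 8.93 and 8.48 in Col-0 (log2 fold change −1.77, standard error 0.38, adjusted p = 0.248 from limma). Its difference lay within the range of the late genes above. On *bli-1* replicate 2, however, its signal was close to that of *PAP2* at background (6.03 to 6.29). The size of the difference thus rests in part on a value near background. The acyltransferase gene *3AT2* (AT1G03495) had 6.82 and 6.56 in *bli-1*, against 7.45 and 7.35 in Col-0 (log2 fold change −0.71, adjusted p = 0.243 from limma). Before normalization, however, *3AT2* was brightest on *bli-1* replicate 2. Its probe then read 35 and 121 units above local background in *bli-1*, against 68 and 81 in Col-0.

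Of the flavonol branch, which shares its precursors with anthocyanins, 5 of 6 genes had a negative log2 fold change, with a median of −0.78. The glycosyltransferase gene *UGT78D1* (AT1G30530) had log2 signals of 9.66 and 9.84 in *bli-1*, against 10.97 and 10.63 in Col-0 (log2 fold change −1.06, standard error 0.17, adjusted p = 0.163 from limma). *UGT89C1* (AT1G06000), for a rhamnosyltransferase of flavonols, had a log2 fold change of −1.26 (adjusted p = 0.33 from limma). The exception was *FLS2* (AT5G63580), a member of the flavonol synthase family, with 9.08 and 8.37 in *bli-1*, against 7.41 and 7.48 in Col-0 (log2 fold change 1.28, standard error 0.26, adjusted p = 0.228 from limma).

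Upstream of *CHS*, the median log2 fold change of the 8 phenylpropanoid genes was −0.31, and values ran from −0.80 for *4CL3* (AT1G65060), which encodes a coumarate ligase linked to flavonoids, to 0.14 for *PAL3* (AT5G04230). The adjusted p of *4CL3* was 0.263 from limma. *CHIL* (AT5G05270), for a protein related to chalcone isomerase that enhances flavonoid synthesis, had 9.56 and 8.64 in *bli-1*, against 10.68 and 10.06 in Col-0 (log2 fold change −1.27, adjusted p = 0.376 from limma). Chalcone isomerase itself (*CHI*, AT3G55120) had a log2 fold change of −0.29.

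Of the 6 repressors, 3 had a positive and 3 a negative log2 fold change. *MYBL2* (AT1G71030), an R3-type MYB protein that inhibits the MYB-bHLH-WD40 complex, had log2 signals of 12.65 and 13.13 in *bli-1*, against 11.62 and 12.34 in Col-0 (log2 fold change 0.91, standard error 0.30, adjusted p = 0.424 from limma). *LBD38* (AT3G49940), for a nitrate-induced repressor of anthocyanin synthesis, had 13.02 and 12.66 in *bli-1*, against 12.15 and 11.97 in Col-0 (log2 fold change 0.78, standard error 0.18, adjusted p = 0.26 from limma). Both *bli-1* arrays lay above both Col-0 arrays for these 2 genes and for *LBD39* (log2 fold change 0.49). These are 3 of the 6 repressors, against 21.2% of all genes and transcripts. *CPC* (AT2G46410), for another R3-type inhibitor, had the most negative value of the list with −0.54. It was the 1 repressor with both *bli-1* arrays below both Col-0 arrays, against 23.0% of all genes and transcripts.

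Partners of the MYB factors differed less. *TTG1* (AT5G24520), for the WD40 protein of the complex, had a log2 fold change of −0.04, and *GL3* (AT5G41315), for a bHLH factor, of 0.33. *GL3* shared the pattern of *TT8*, with 6.66 and 7.67 in *bli-1*, against 6.81 and 6.85 in Col-0. *MYB113* and *MYB114*, which stand beside *PAP2* in locus order, were at background on both Col-0 arrays. In *bli-1*, *MYB113* was marked well above background on 2 arrays and *MYB114* on 1. The probe of *MYB113* read 15.5 and 102.5 units above local background in *bli-1*, against 5 and 2 in Col-0. Its log2 fold change was 0.28, from values close to background. Among regulators of flavonol synthesis, *MYB111* (AT5G49330) had 6.90 and 6.32 in *bli-1*, against 7.70 and 7.43 in Col-0 (log2 fold change −0.95, adjusted p = 0.298 from limma), whereas *MYB12* had −0.07. On *bli-1* replicate 2 *MYB111* was close to background. Of the proanthocyanidin branch, which is active in the seed coat, 1 of 6 genes was well above background on all 4 arrays, *AHA10*, with a log2 fold change of −0.01.

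**Figure D5:**
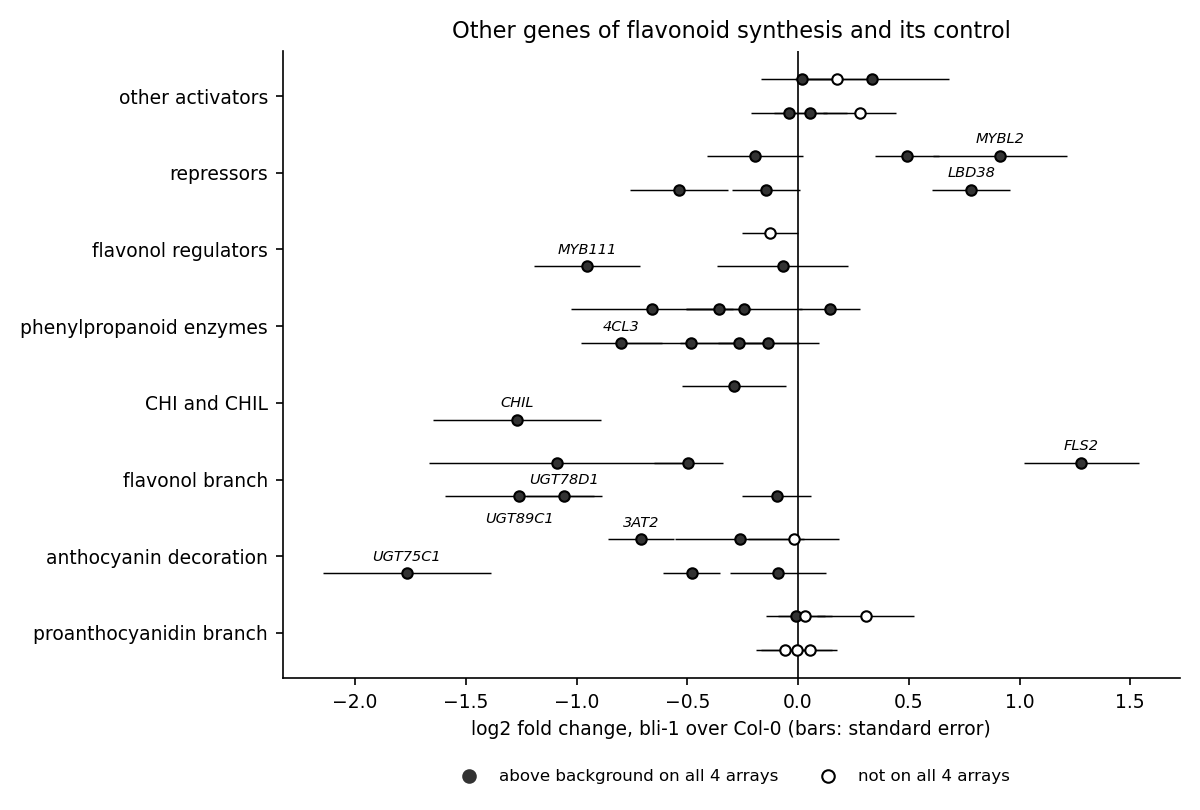
Log2 fold change of 43 further genes of flavonoid synthesis and its control, *bli-1* over Col-0, by list, with bars for the standard error and open circles for genes not well above background on all 4 arrays. The 10 named genes pass an unadjusted p below 0.05 with at least a 1.5-fold change, from *UGT75C1* at −1.77 to *FLS2* at 1.28.

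The genes most like the late steps were sought among 22916 other genes that were well above background on all 4 arrays. Likeness was the root mean square distance between the 4 log2 values of a gene, each minus its mean, and the same values averaged over the 4 late genes. The closest was AT5G15120, named *PCO1* for a plant cysteine oxidase, at a distance of 0.09 log2 units, with 7.79 and 7.35 in *bli-1*, against 9.30 and 8.93 in Col-0. It was followed by *LHCB4.3* (AT2G40100), for a light-harvesting antenna protein, AT1G68600, *SCPL51* (AT2G27920), for a serine carboxypeptidase-like protein, and AT4G22870, at distances up to 0.12. AT4G22870 stands next to *LDOX* in locus order and had 7.71 and 7.18 in *bli-1*, against 9.49 and 8.80 in Col-0. Of the late genes themselves, *GSTF12* was nearest to their average, at 0.09, and *UF3GT* farthest, at 0.44.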

How the data were processed

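The authors deposited, for each array, the median pixel intensities of spots and local backgrounds, a processed signal intensity and quality marks, as written by Agilent Feature Extraction 11.0.1.1. These intensities are not normalized between arrays. The submitters' processing notes name limma.

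The median intensities were corrected with normexp (offset 50, limma 3.58.1, R 4.3.3), a choice made here, since the methods give only background correction and quantile normalization. Control spots were then left out, outlier spots set to missing, and arrays quantile normalized. Of the gene spots, 34432 were matched to a locus through RefSeq accessions. Genotypes were compared with lmFit and eBayes, without other terms, and p-values adjusted after Benjamini and Hochberg over 34290 genes and transcripts. The scanner software's mark of a spot well above background was required of all probes of a gene.

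The members and lists were chosen with earlier results of these data known. Besides the members and *BLI*, the genes named were those of the lists past an unadjusted p below 0.05 with a 1.5-fold change, the largest rise and fall of each list, and the 5 most like genes. Other genes named were chosen after their values were seen. Alternatives were other background corrections and normalizations, a filter on dim probes, single probes, outlier spots kept, trend and robust options, the slide or replicate number as a block, and each array left out. After the data were seen, the negative control median was added as a background. The script was tested on simulated data. The number of arrays limits the precision.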

Additional observations from a re-analysis of the deposited data

How the results depend on the processing

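Of the 153 alternative values for the 9 genes measured above background, 137 kept sign and side of the threshold, 15 passed the threshold with the slide as a block or without *bli-1* replicate 1, and *TT8* was at −0.55 without *bli-1* replicate 2 and 0.97 without *bli-1* replicate 1. The slide as a block called 7 members lower and 1 higher, 14 pathway genes lower and 5 higher, and 3198 genes and transcripts higher and 2492 lower. By unadjusted p, 5 members were lower, 7 pathway genes lower and 3 higher, and 850 genes and transcripts higher and 923 lower. With arrays left out, members called ranged over 0 to 6 lower and 0 to 1 higher, pathway genes over 0 to 12 lower and 0 to 5 higher, and all genes over 0 to 2969 higher and 0 to 2125 lower. The highest counts were those without *bli-1* replicate 1. The lone array of a genotype is then assumed to vary like the other genotype's arrays.

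Over all genes, limma called 33 higher and 6 lower, 84 and 31 with dim probes left out, 80 and 35 with trend and robust options, and 11 and 1 with an offset of 16. It called 0 and 0 with an offset of 0, with subtraction, with the processed signal under either normalization, and with the 75th percentile after normexp. The replicate block called 0 of all genes, 0 members and 0 pathway genes. Same-numbered deviations correlated at 0.07 across genes, so the numbers are not taken to pair the samples.

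The late median of −1.52 became −2.05 with an offset of 0, −2.18 with subtraction and −2.27 with the processed signal, quantile normalized. The early median ranged between −1.38 and −0.28, both from leaving out a *bli-1* array. The late median was lower than the early one under all 17 alternatives, with differences between −1.27 and −0.42. Not all 17 are separate checks. The trend and robust options and the replicate block change the test and not the fold changes. With dim probes left out the difference stayed at −0.70. The slide as a block and leaving out *bli-1* replicate 1 both set *bli-1* replicate 2 against Col-0. The 75th percentile of the processed signal moved the median of all genes to 0.27, and that after normexp to −0.12.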

Other observations

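Before normalization, other genes around this pathway were, like *TT8*, brightest on *bli-1* replicate 2. These were picked after their values were seen. Above local background, *GL3* read 23 and 251.5 units in *bli-1*, against 23.5 and 34 in Col-0. The acyltransferase gene *5MAT* read 29 and 223 in *bli-1*, against 78 and 62.5 in Col-0, and *TT12*, for a transporter of the seed coat, read 3 and 144 in *bli-1*, against 2 and 4 in Col-0. *MYB114* read 2 and 99.5 in *bli-1*, against 0 and 3.5 in Col-0. On the normalized log2 scale, *5MAT* was at 6.74 and 7.47 in *bli-1*, against 7.56 and 7.18 in Col-0, and so was not highest on that array. *MYB114* was at 6.14 and 6.40 in *bli-1*, against 6.05 and 6.14 in Col-0. What the raised dim signal of that array contributes to these values was not tested.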
